A study of Arabidopsis thaliana with 12 samples.

Results

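Transcripts of the quadruple mutant h1.1 h1.2 cdca7α cdca7β were compared with those of the libraries whose count tables are named h1. The comparison used every library with either name, 3 of each and 6 of the 12 in the series. By the table names it asks what loss of both CDCA7 proteins changes in plants that already lack linker histone H1. The sample titles call the same 3 reference libraries Col0, so that by the titles the comparison sets the quadruple mutant against the wild type. The name of the quadruple mutant is the same in both. Titles and table names disagree for 9 of the 12 libraries, no library was reassigned by its values, and the reference is called named h1 (titled Col0) here. All plants were Arabidopsis thaliana of the Col-0 ecotype, harvested as 14-day seedlings with 1 seedling per library. The h1.1 and h1.2 alleles are T-DNA insertions and the cdca7α and cdca7β alleles are CRISPR/Cas9 mutations. By the table names both sets carry the h1 insertions, whereas by the titles only the quadruple mutant carries any mutation.

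CG methylation keeps transposable elements (TEs) and repeats silent in plants. It is copied after replication by the methyltransferase MET1 with VIM proteins, and in densely packed heterochromatin this also needs the chromatin remodeller DDM1. CDCA7 proteins bind hemimethylated CG sites and are partners of the DDM1 family of remodellers. Linker histone H1 sits on the DNA between nucleosomes and limits access to heterochromatin, and Arabidopsis heterochromatin lies mostly around the centromeres.

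Few loci passed the test, 2 genes and 1 TE. The gene AT2G05915, the pseudogene AT4G04170 and the TE AT4TE17660 had higher counts in the quadruple mutant than in the libraries named h1 (titled Col0), and no gene or TE was called lower. Both genes lie in pseudogene-rich regions of their chromosomes. All 3 were also called higher in 6 libraries that were not part of this comparison, those of the tables named cdca7acdca7b (titled h1.1h1.2) over those named col (titled cdca7acdca7b).

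The counts on genes were few for the number of reads. The gene tables summed to between 450869 and 556326 counts in the quadruple mutant and between 605255 and 833911 in the libraries named h1 (titled Col0). Reads on no gene made up 98.2 to 98.4% and 98.1 to 98.2% of the reads in these tables. Genes whose exons overlap an exon of a gene on the other strand were 22.0% of the genes placed on the genome and held 79.3% of the counts on placed genes over the 6 libraries. The library kit keeps strand, but the strand option of the counting is not given in the sources used here. A count is therefore the number of reads assigned to a gene and cannot be told apart from reads of a transcript on the other strand. Which strand was counted was not tested, and a low count here does not show low expression of the gene. In whole seedlings, fewer cells of a type and less RNA per cell cannot be told apart either. Replicates differed beyond sampling noise in every pair, with a chi-square of 5.02 to 14.1 per degree of freedom over genes.

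The mutated genes were nearly uncounted. CDCA7α (AT4G37110) had 0, 0 and 0 counts in the quadruple mutant, against 4, 2 and 10 in the libraries named h1 (titled Col0). CDCA7β (AT2G23530) had 0, 0 and 0 counts in the quadruple mutant, against 0, 7 and 0 in the libraries named h1 (titled Col0). Both H1 genes were counted at a few reads in either set, with 4, 6 and 5 for H1.1 (AT1G06760) in the quadruple mutant and 3, 2 and 10 in the libraries named h1 (titled Col0). The values for H1.2 (AT2G30620) were 7, 0 and 10 in the quadruple mutant and 1, 15 and 7 in the libraries named h1 (titled Col0). In the other 6 libraries, H1.1 had 21, 1 and 0 counts in those named cdca7acdca7b (titled h1.1h1.2) and 0, 0 and 0 in those named col (titled cdca7acdca7b). The values for H1.2 there were 16, 3 and 9 in those named cdca7acdca7b (titled h1.1h1.2) and 0, 1 and 2 in those named col (titled cdca7acdca7b). CDCA7α had 0, 0 and 5 counts in those named cdca7acdca7b (titled h1.1h1.2) and 3, 2 and 8 in those named col (titled cdca7acdca7b). Of these 4 genes, 1 passed the filter on low counts, H1.2, whose log2 fold change was 0.20 ± 1.03 (SE, edgeR adjusted p = 0.991) and turned sign in 5 alternative settings. These counts were too low to say which naming the plants follow.

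Quadruple mutant replicate 3 stood apart from the other libraries in organelle counts. Mitochondrial genes took 2.1% of its gene counts (Wilson 95% interval 2.06 to 2.14, counting error only), and 0.0364% and 0.0552% of those of replicates 1 and 2. The libraries named h1 (titled Col0) had 0.0259, 0.0446 and 0.0368%. Chloroplast genes took 0.523% (0.505 to 0.543) of its gene counts and 0.0271% and 0.0210% in replicates 1 and 2, against 0.0182, 0.0267 and 0.0154% in the libraries named h1 (titled Col0). Results that rest on this library are therefore also given without it where that fit was run.

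**Figure D1:**
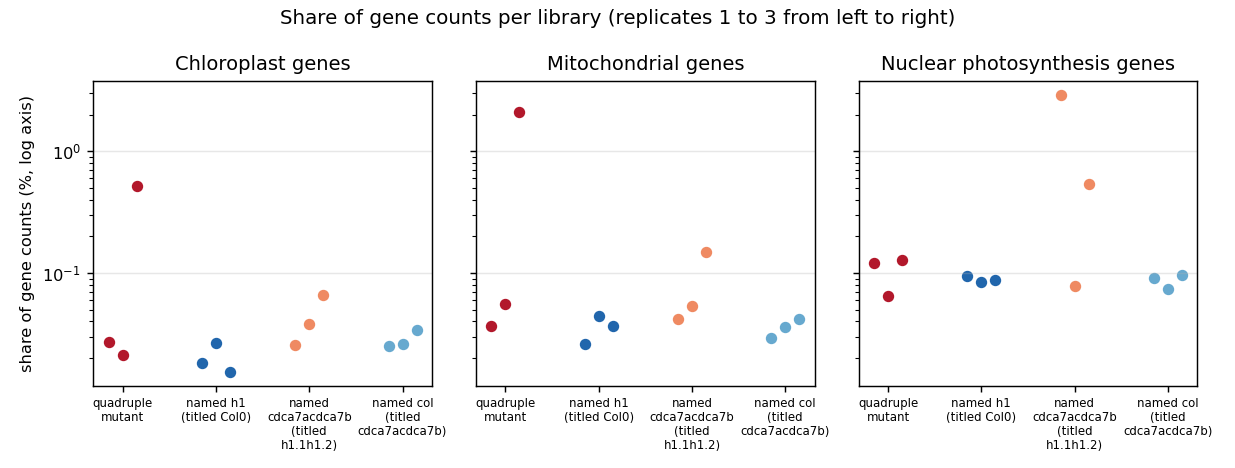
Share of the gene counts of each library that fell on chloroplast genes, mitochondrial genes and 22 nuclear photosynthesis genes (percent, log axis), with 1 point per library. Quadruple mutant replicate 3 is the highest point for both organelles, at 0.523% and 2.1%, and replicate 1 of the tables named cdca7acdca7b is the highest for the photosynthesis genes, at 2.92%.

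The 3 genes that led the comparison by p-value, 2 of them called, all lie in pseudogene-rich regions, and their annotated starts are shown with each CG dinucleotide, the site that MET1 methylates, in capitals. Each window runs from 250 bases before to 50 bases from the annotated start, on the plus strand of TAIR10.1 (NCBI RefSeq). The windows are chr2:2263566-2263865, chr4:2013447-2013746 and chr3:14790924-14791223.
AT2G05915: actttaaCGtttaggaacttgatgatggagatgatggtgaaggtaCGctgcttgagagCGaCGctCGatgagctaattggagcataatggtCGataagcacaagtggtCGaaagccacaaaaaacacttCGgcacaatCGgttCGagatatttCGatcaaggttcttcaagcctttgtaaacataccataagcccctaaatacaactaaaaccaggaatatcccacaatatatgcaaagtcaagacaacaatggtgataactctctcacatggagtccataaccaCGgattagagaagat
AT4G04170: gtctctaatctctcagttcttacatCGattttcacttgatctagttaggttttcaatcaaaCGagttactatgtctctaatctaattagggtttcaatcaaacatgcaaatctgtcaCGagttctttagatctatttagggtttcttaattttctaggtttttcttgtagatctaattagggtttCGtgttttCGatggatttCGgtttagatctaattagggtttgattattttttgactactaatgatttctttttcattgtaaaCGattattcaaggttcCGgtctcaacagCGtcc
AT3G06465: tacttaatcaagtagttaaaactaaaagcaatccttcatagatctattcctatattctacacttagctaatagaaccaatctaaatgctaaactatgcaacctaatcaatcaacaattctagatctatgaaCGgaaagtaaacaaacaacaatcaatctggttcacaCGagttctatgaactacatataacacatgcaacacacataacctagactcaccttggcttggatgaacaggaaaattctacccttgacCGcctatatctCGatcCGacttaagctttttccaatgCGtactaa
The window of AT2G05915 holds 12 CG, that of AT4G04170 holds 9 and that of AT3G06465 holds 6. Over the same window of all 34877 placed genes the median was 6 CG, 98.3% held at least 1, and 13.3% held 12 or more. Across the whole gene, AT3G06465 had 5.10 CG per 100 bases, AT4G04170 had 3.50 and AT2G05915 had 3.11, and the median of the tested genes was 2.71. A CG in the sequence does not say whether it is methylated in these plants.

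AT2G05915 is an annotated protein-coding gene of unknown function at chr2:2263816-2264265 on the plus strand of TAIR10.1. Its level was 126, 149 and 122 CPM (gene counts scaled to a common library size after TMM normalization) in the quadruple mutant, against 26.1, 22.0 and 12.7 CPM in the libraries named h1 (titled Col0). The 2 sets did not overlap, and the log2 fold change was 2.68 ± 0.341 (SE, n = 3 each, edgeR quasi-likelihood adjusted p = 0.00473). The long noncoding RNA gene AT2G05914 overlaps it on the other strand and had 0, 1 and 0 counts in the quadruple mutant and 3, 0 and 0 in the libraries named h1 (titled Col0). Without replicate 2 or without replicate 3 of the libraries named h1 the adjusted p of AT2G05915 was 0.0964 and 0.0974, so that the call was lost, and without quadruple mutant replicate 3 it was 0.026.

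AT4G04170 is a pseudogene at chr4:2013697-2018328 on the plus strand, with no overlapping exon on the other strand. It had 51.1, 39.4 and 64.4 CPM in the quadruple mutant, against 7.66, 5.23 and 4.77 CPM in the libraries named h1 (titled Col0). The sets did not overlap and the log2 fold change was 3.1 ± 0.504 (SE, n = 3 each, edgeR adjusted p = 0.0408). This call was close to the threshold. The adjusted p was above it when any 1 of the 6 compared libraries was left out (0.0689 to 0.703, the highest without replicate 2 of the libraries named h1), and it was 0.246 without quadruple mutant replicate 3. Counting libraries outside the comparison, the call held in 2 of the 12 fits with 1 library left out. Over all 22 alternatives it held in 8.

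AT3G06465, a long noncoding RNA gene at chr3:14791174-14791781 on the plus strand, came next by p-value and was not called. Its level was 36.2, 83.1 and 19.7 CPM in the quadruple mutant, against 7.66, 0 and 0 CPM in the libraries named h1 (titled Col0), with a log2 fold change of 4.21 ± 0.806 (SE, n = 3 each, edgeR adjusted p = 0.152). Every quadruple mutant library was above every library named h1. Across the genome 6.16% of genes tested had the quadruple mutant wholly above and 5.96% wholly below. It was called with no filter on low counts (adjusted p = 8.49e-17), with at least 10 counts summed (6.41e-16) and without quadruple mutant replicate 3 and replicates 1 and 3 of the tables named cdca7acdca7b (0.00255). Without replicate 1 of the libraries named h1, the only one with a count, the adjusted p was 0.0644 and the fitted log2 fold change was 7.81, which then has a reference at 0 and is no bound.

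Across all genes, 2 of 4461 tested were called higher (0.0448%) and 0 lower (0%), where a call is an adjusted p below 0.05 with a log2 fold change of 1 or more in size. At an unadjusted p under 0.05 there were 124 higher (2.78%) and 106 lower (2.38%), and DESeq2 called 3 higher and 0 lower. The median log2 fold change was 0.02, with an interquartile range of -0.29 to 0.34. The filter on low counts removed most of the 35651 listed genes, and without it there were 31 called higher and 7 lower. Those 31 include AT2G09250 (95.8, 147 and 6800 CPM in the quadruple mutant), AT1G15670, AT1G64790 and AT1G65960, which were high in replicate 3 alone. The calls with no filter were not repeated without that replicate.

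**Figure D2:**
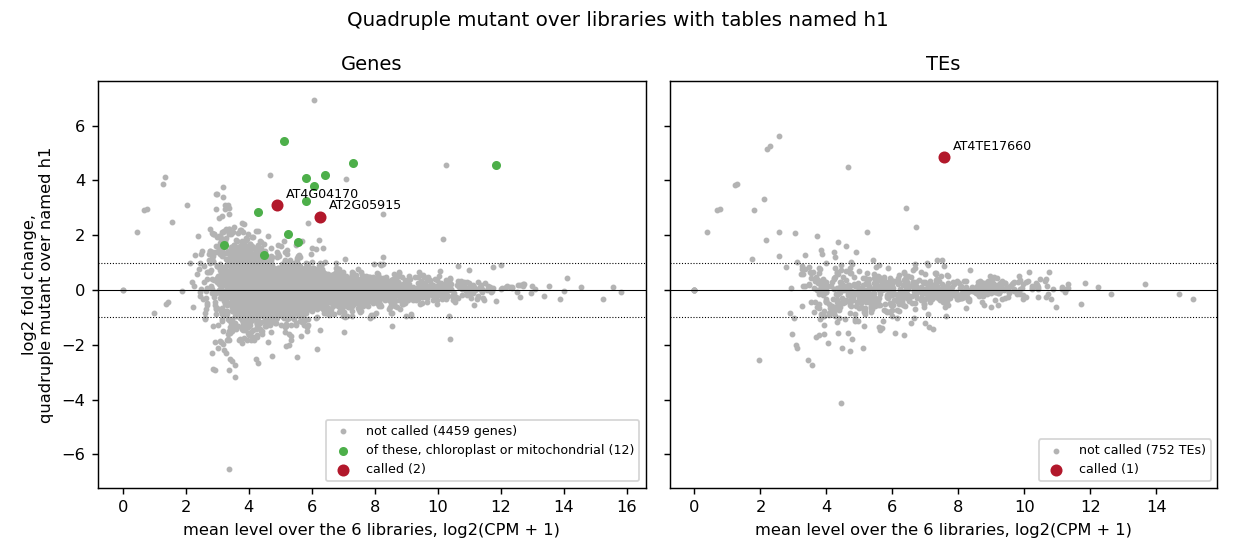
Log2 fold change of the quadruple mutant over the libraries named h1 against the mean level over the 6 libraries, log2(CPM + 1), for the 4461 genes and 753 TEs tested, with 1 point per feature and dotted lines at a log2 fold change of 1 and -1. The 2 called genes and the 1 called TE lie above 2, and 12 chloroplast and mitochondrial genes lie above 1.

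The other genes named above the reference were those with the smallest p-values among genes whose sets did not overlap, and none was called. Genes that rest on quadruple mutant replicate 3 had p-values as small and are given with the organelle genes. AT4G17100, annotated as a poly(U)-specific endoribonuclease, had 569, 236 and 488 CPM in the quadruple mutant, against 216, 174 and 165 CPM in the libraries named h1 (titled Col0), a log2 fold change of 1.22 ± 0.271 (SE, edgeR adjusted p = 0.449). DESeq2 called it beside AT2G05915 and AT4G04170. AT4G17098 overlaps it on the other strand. Its raw counts were 1042, 1326 and 1312 in the quadruple mutant and 2256, 2323 and 1987 in the libraries named h1 (titled Col0). The libraries named h1 also held more gene counts, 605255 to 833911 against 450869 to 556326. These raw counts are not scaled for that and give no direction. WRKY53 (AT4G23810), a transcription factor of leaf senescence and defence, had 1400, 1270 and 1330 CPM in the quadruple mutant, against 779, 831 and 872 CPM in the libraries named h1 (titled Col0), a log2 fold change of 0.69 ± 0.173 (SE, edgeR adjusted p = 0.547). The sets did not overlap, which was a condition for naming it, and the adjusted p did not pass. WRKY53 had 855, 1240 and 1220 CPM in the libraries named cdca7acdca7b (titled h1.1h1.2) and 1090, 1090 and 1310 CPM in those named col (titled cdca7acdca7b). It shares exon sequence with AT4G23800 on the other strand. AT4G37608, AT2G45630, AT3G15570, AT4G36550 and AT2G47115 completed the 10 genes named in this direction, with log2 fold changes of 0.44 to 1.80 and edgeR adjusted p-values of 0.449 to 0.667. Of these 10 genes, 5 shared exon sequence with a gene on the other strand, beside 60.5% of tested genes, and 3 were in pseudogene-rich regions, which hold 98 of the 4461 tested.

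No gene was called lower, and the 10 named in this direction are given as values. AT1G22610, a C2-domain gene, had 0, 0 and 0 CPM in the quadruple mutant, against 35.2, 14.7 and 6.36 CPM in the libraries named h1 (titled Col0), at least 9.08-fold lower with 3 counts over the group in place of 0 (edgeR adjusted p = 0.466). It overlaps AT1G22620 on the other strand. NRT2.7 (AT5G14570), a nitrate transporter known from seeds, had 324, 505 and 338 CPM in the quadruple mutant, against 826, 563 and 837 CPM in the libraries named h1 (titled Col0), a log2 fold change of -0.93 ± 0.231 (SE, edgeR adjusted p = 0.547). MUB6 (AT1G22050), a membrane-anchored ubiquitin-fold protein, had 6.39, 10.9 and 7.15 CPM in the quadruple mutant, against 50.6, 44.0 and 36.5 CPM in the libraries named h1 (titled Col0), a log2 fold change of -2.40 ± 0.674 (SE, edgeR adjusted p = 0.606). In all 3 the sets did not overlap, which was a condition of their choice, and 5.96% of all genes tested lay wholly below. AT2G24692, AT5G46440, AT1G60660, PMP22 (AT4G04470), AT1G35260, AT1G68870 and AT5G42680 had log2 fold changes of -3.19 to -0.92 and adjusted p-values of 0.547 to 0.733. Of these 10 genes, 0 were in pseudogene-rich regions.

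AT4TE17660 was the called TE. It had 443, 182 and 470 CPM in the quadruple mutant, against 10.7, 14.7 and 11.1 CPM in the libraries named h1 (titled Col0). The lowest quadruple mutant library was far above the highest library named h1, and the log2 fold change was 4.86 ± 0.650 (SE, n = 3 each, edgeR adjusted p = 0.000787). It was called in all 23 alternative settings run, with log2 fold changes of 4.62 to 5.16 and adjusted p-values of 4.05e-24 to 0.0101, and without quadruple mutant replicate 3 the adjusted p was 0.00569. Its level in the 3 libraries named cdca7acdca7b (titled h1.1h1.2) was 257, 620 and 74.4 CPM, and it was 1.54, 0 and 1.37 CPM in those named col (titled cdca7acdca7b). TE positions and families were not used here, and TEs are named by their identifiers, which carry the chromosome number after the letters AT.

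Across all TEs, 1 of 753 tested was called higher (0.133%) and 0 lower (0%). At an unadjusted p under 0.05 there were 26 higher (3.45%) and 31 lower (4.12%), and DESeq2 called 6 higher and 2 lower. The median log2 fold change was -0.03, with an interquartile range of -0.31 to 0.25. TE counts were 25.8, 25.1 and 23.6% of gene counts in the quadruple mutant and 30.9, 23.5 and 23.8% in the libraries named h1 (titled Col0), and the sets overlapped (exact permutation test, two-sided p = 0.9, where 0.1 is the smallest that 3 against 3 allows).

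A further 3 TEs shared an adjusted p of 0.0786. AT2TE19615 had 49.0, 65.6 and 64.4 CPM in the quadruple mutant, against 29.1, 9.42 and 3.18 CPM in the libraries named h1 (titled Col0), a log2 fold change of 2.12 ± 0.459. AT5TE48715 had 239, 177 and 105 CPM in the quadruple mutant, against 30.6, 28.3 and 47.7 CPM in the libraries named h1 (titled Col0), a log2 fold change of 2.29 ± 0.517. AT1TE89775 had 31.9, 138 and 281 CPM in the quadruple mutant, against 18.4, 23.0 and 14.3 CPM in the libraries named h1 (titled Col0), a log2 fold change of 2.99 ± 0.680 (all SE, edgeR). In each of the 3 the quadruple mutant was wholly above, a condition of their choice that 5.58% of all TEs tested met. The quadruple mutant libraries of AT1TE89775 were the most spread. Without quadruple mutant replicate 3 its log2 fold change was 2.14 (adjusted p = 0.327). DESeq2 called all 3, and so did the fit with TE library sizes taken from TE counts, which called 4 TEs higher.

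For 2 TEs the libraries named h1 (titled Col0) had no count. AT3TE50570 had 4.26, 15.3 and 3.58 CPM in the quadruple mutant, against 0, 0 and 0 CPM in the libraries named h1 (titled Col0), at least 5.52-fold higher (edgeR adjusted p = 0.145). AT4TE18640 had 4.26, 21.9 and 3.58 CPM in the quadruple mutant, against 0, 0 and 0 CPM in the libraries named h1 (titled Col0), at least 7.03-fold higher (edgeR adjusted p = 0.205). Both were detected in every quadruple mutant library and in none of the reference, at levels of a few counts. AT2TE10600 (log2 fold change 1.77 ± 0.553 SE, edgeR adjusted p = 0.211), AT5TE43705 (3.33 ± 1.19, adjusted p = 0.391), AT2TE08720 (0.67 ± 0.208, adjusted p = 0.209) and AT2TE61100 (0.64 ± 0.201, adjusted p = 0.211) completed the 10 TEs named in this direction, chosen by p-value among those whose sets did not overlap.

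**Figure D3:**
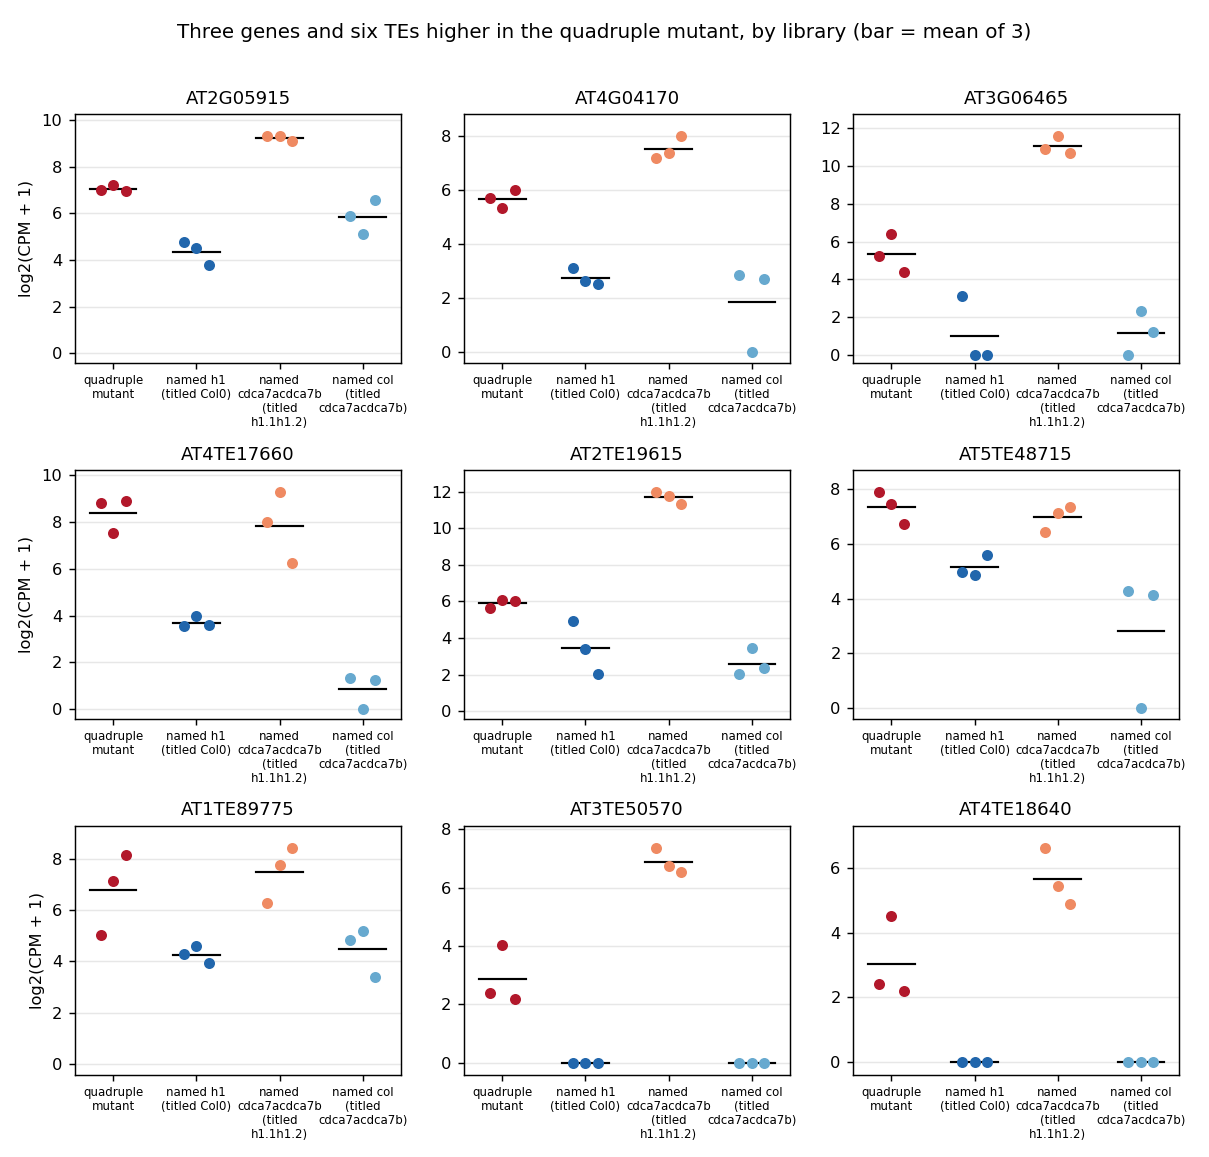
Level of 3 genes and 6 TEs in each of the 12 libraries, log2(CPM + 1), with 1 point per library and a bar at the mean of 3. The quadruple mutant points lie above all points of the libraries named h1 in each panel, which was a condition for naming the uncalled ones. In AT3TE50570 and AT4TE18640 the libraries named h1 and those named col are at 0.

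TEs below the reference were not called. AT3TE40900 had 76.7, 114 and 57.2 CPM in the quadruple mutant, against 234, 256 and 164 CPM in the libraries named h1 (titled Col0), a log2 fold change of -1.41 ± 0.356 (SE, edgeR adjusted p = 0.145). AT4TE12425 had 8.52, 8.75 and 19.7 CPM in the quadruple mutant, against 58.2, 62.8 and 41.3 CPM in the libraries named h1 (titled Col0), a log2 fold change of -2.10 ± 0.552 (SE, edgeR adjusted p = 0.145). These were the 2 TEs that DESeq2 called lower. AT3TE70700, AT5TE46175, AT5TE56250, AT4TE34430, AT2TE20735, AT4TE10035, AT1TE04720 and AT2TE26680 had log2 fold changes of -2.73 to -1.21 and edgeR adjusted p-values of 0.145 to 0.209. Of the 10, 1 was called lower in the other 6 libraries, AT4TE10035, and 1 was called higher there, AT5TE46175.

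Of the 10 TEs named above the reference, 8 were also called higher in the other pair, as were 3 of the 10 genes. AT3TE50570, AT4TE18640 and AT5TE43705, among the 8, had too few counts in the 6 libraries compared to pass the filter there. They were tested only through the libraries named cdca7acdca7b, so their overlap is no separate support. The tables named cdca7acdca7b (titled h1.1h1.2) over those named col (titled cdca7acdca7b) share no library with the quadruple mutant and the libraries named h1, although all 12 entered 1 fit. They gave 36 TEs called higher (4.78% of 753) and 4 lower (0.531%), and 90 genes called higher (2.02% of 4461) and 7 lower (0.157%). Of the 26 TEs higher at an unadjusted p under 0.05 in the quadruple mutant, 12 were among those 36 TEs, which is 46.2% of the 26 and 33.3% of the 36. Of the 12, 5 had fewer than 20 counts over the 6 libraries, a limit set after seeing the values. Of the 31 TEs lower at that threshold, 1 was among the 4 (3.23% and 25%). Of the 124 genes higher at an unadjusted p under 0.05, 8 were among the 90 (6.45% and 8.89%), and 1 of the 8 was under that count limit.

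The 36 TEs had a median log2 fold change of 0.98 in the quadruple mutant over the libraries named h1, against -0.03 for all TEs tested. Of them 26 were above 0, 1 was called, 10 lay wholly above with no overlap and 2 wholly below, beside 5.58% and 6.24% of all TEs tested. Part of this rests on very few reads, since the 36 had to be high in the libraries named cdca7acdca7b and could pass the filter through them alone. In a split made after seeing the values, 16 had fewer than 20 counts over the 6 libraries, and the other 20 had a median of 0.78, with 15 above 0. The split does not remove this limit. The other 20 still include TEs with too few counts in the 6 libraries to pass the filter there, such as AT4TE20400 and AT5TE78780. The mean level of all 36 TEs, log2(CPM + 1), was 3.84, 3.68 and 3.87 in the quadruple mutant, against 2.93, 2.96 and 2.73 in the libraries named h1 (titled Col0). It was 6.26, 6.91 and 6.47 in the libraries named cdca7acdca7b (titled h1.1h1.2), against 1.91, 1.73 and 1.38 in those named col (titled cdca7acdca7b). The levels in these last sets chose the 36 TEs and are given as a description. In 7 of the 36 TEs the libraries named h1 were all at 0 and the quadruple mutant had counts, and 5 were at 0 in all 6 libraries (AT2TE16800, AT2TE17550, AT3TE59470, AT1TE45395 and AT2TE17585), although each had counts in the 3 libraries named cdca7acdca7b. Of the 7, AT3TE59460, AT4TE15420, AT5TE40530 and AT2TE19400 were counted in 1 quadruple mutant library only, with 1, 2, 2 and 4 reads.

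Set against all genes, the 90 were also above, with a median log2 fold change of 0.77 in the quadruple mutant over the libraries named h1 (titled Col0), against 0.02 for all genes tested, and 2 of them were called. The 14 that lie in pseudogene-rich regions had a median of 1.72, with 4 higher at an unadjusted p under 0.05, and the 9 of them with 20 or more counts over the 6 libraries had a median of 1.47. The 9 still include genes with too few counts in the 6 libraries to pass the filter there, such as AT2G10250. Of the 14, AT1G36630, a pseudogene, had 2.13, 0 and 7.15 CPM in the quadruple mutant, against 0, 0 and 0 CPM in the libraries named h1 (titled Col0). The other 76 had a median of 0.75 and 0 calls. They include GAPA (AT3G26650), an enzyme of the Calvin cycle, with 34.1, 13.1 and 25 CPM in the quadruple mutant, against 9.19, 10.5 and 4.77 CPM in the libraries named h1 (titled Col0) (log2 fold change 1.52 ± 0.767 SE, edgeR adjusted p = 0.936). Nuclear photosynthesis genes took 2.92% and 0.543% of the gene counts of replicates 1 and 3 of the tables named cdca7acdca7b, and 0.0645 to 0.127% in the 6 libraries compared here. The part of this in the 76 genes was not tested. The mean level of the 90 genes, log2(CPM + 1), was 4.58, 3.92 and 4.51 in the quadruple mutant, against 3.73, 3.68 and 3.64 in the libraries named h1. In those named cdca7acdca7b it was uneven, at 8.27, 5.12 and 6.64, against 3.17, 3.31 and 3.13 in those named col. Many of the 76 were high mainly in replicate 1 of the tables named cdca7acdca7b, such as FBA2 (AT4G38970) with 952, 16.6 and 128 CPM there.

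**Figure D4:**
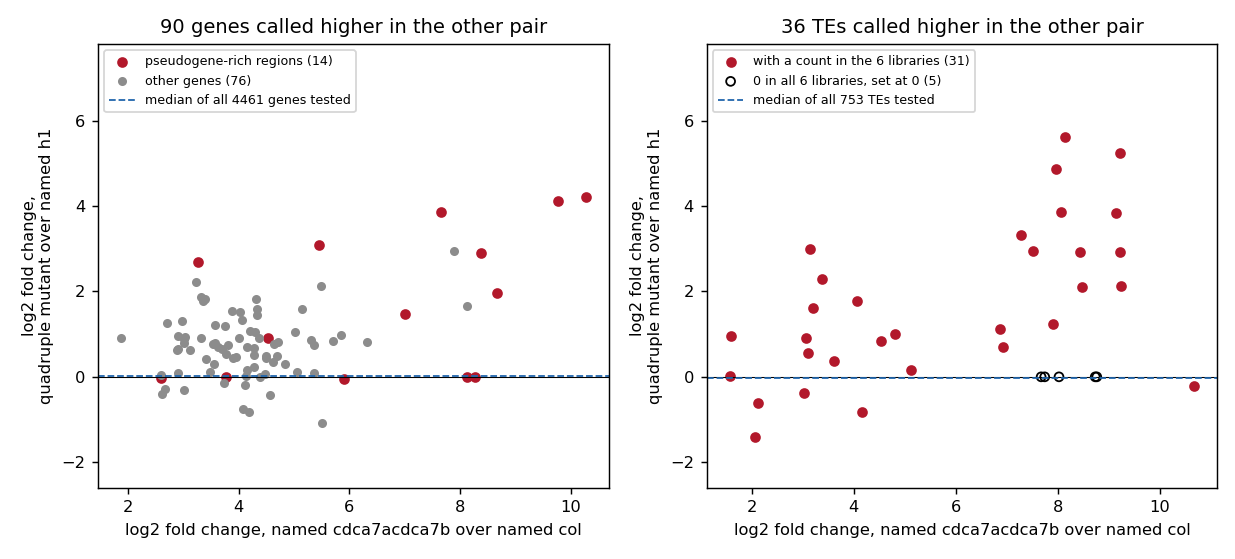
Log2 fold change of the quadruple mutant over the libraries named h1 (vertical) against that of the tables named cdca7acdca7b over col (horizontal), for the 90 genes and the 36 TEs called higher in that second comparison, with a dashed line at the median of all features tested. Most points lie above the dashed line (75 genes and 26 TEs are above 0), and open circles mark 5 TEs at 0 in all 6 libraries.

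The change itself differed between both pairs for 6 TEs (0.797% of TEs tested), by an interaction term held to the same limits. All 6 were more positive in the pair named cdca7acdca7b over col. TEs with no count in the libraries named h1 and in those named col could not be called, whatever their other levels. For AT2TE16800 the interaction was -8.73 with an SE of 19100. At an unadjusted p under 0.05 there were 23 positive (3.05%) and 39 negative (5.18%). AT1TE93275 had 330, 322 and 431 CPM in the quadruple mutant, 492, 390 and 385 CPM in the libraries named h1 (titled Col0), 344, 363 and 281 CPM in those named cdca7acdca7b (titled h1.1h1.2) and 0, 0 and 0 CPM in those named col (titled cdca7acdca7b). The quadruple mutant overlapped in range both with the libraries named h1 and with those named cdca7acdca7b, and the libraries named col stood apart by having no count. Its log2 fold change was -0.22 ± 0.232 (SE) in the quadruple mutant over the libraries named h1, and its interaction was -10.89 ± 0.628 (SE, edgeR adjusted p = 2.99e-08), a size that depends on the small count the fit adds where a set is at 0.

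The libraries named col were also the lowest for the TEs AT5TE46155 and AT5TE46165. AT5TE46155 had 273, 243 and 299 CPM in the quadruple mutant, 475, 292 and 292 CPM in the libraries named h1 (titled Col0), 139, 347 and 286 CPM in those named cdca7acdca7b (titled h1.1h1.2) and 29.3, 51.5 and 16.4 CPM in those named col (titled cdca7acdca7b). AT5TE46165 had 411, 354 and 429 CPM in the quadruple mutant, 823, 455 and 547 CPM in the libraries named h1 (titled Col0), 388, 465 and 560 CPM in those named cdca7acdca7b (titled h1.1h1.2) and 139, 113 and 73.9 CPM in those named col (titled cdca7acdca7b). In both, the libraries named col overlapped with no other library. AT5TE46175, with an identifier close to both, had 21.3, 28.4 and 32.2 CPM in the quadruple mutant, 115, 60.7 and 42.9 CPM in the libraries named h1 (titled Col0), 96.6, 113 and 103 CPM in those named cdca7acdca7b (titled h1.1h1.2) and 27.8, 29.7 and 17.8 CPM in those named col (titled cdca7acdca7b). Here the quadruple mutant was as low as the libraries named col.

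AT3TE70700 was lowest in the quadruple mutant, with 2.13, 2.19 and 3.58 CPM, against 18.4, 22.0 and 15.9 CPM in the libraries named h1 (titled Col0). It had 32.2, 46.1 and 18.2 CPM in those named cdca7acdca7b (titled h1.1h1.2) and 7.71, 11.9 and 15 CPM in those named col (titled cdca7acdca7b). AT2TE19615, given above, had 3990, 3510 and 2540 CPM in the libraries named cdca7acdca7b (titled h1.1h1.2) and 3.08, 9.90 and 4.1 CPM in those named col (titled cdca7acdca7b), so that the quadruple mutant, at 49.0 to 65.6 CPM, was far below the libraries named cdca7acdca7b. No gene passed the interaction test by edgeR, with 134 positive (3%) and 212 negative (4.75%) at an unadjusted p under 0.05. Genes with no count in both reference sets could not pass it, such as AT2G10620 (interaction -8.27 with an SE of 19200).

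**Figure D5:**
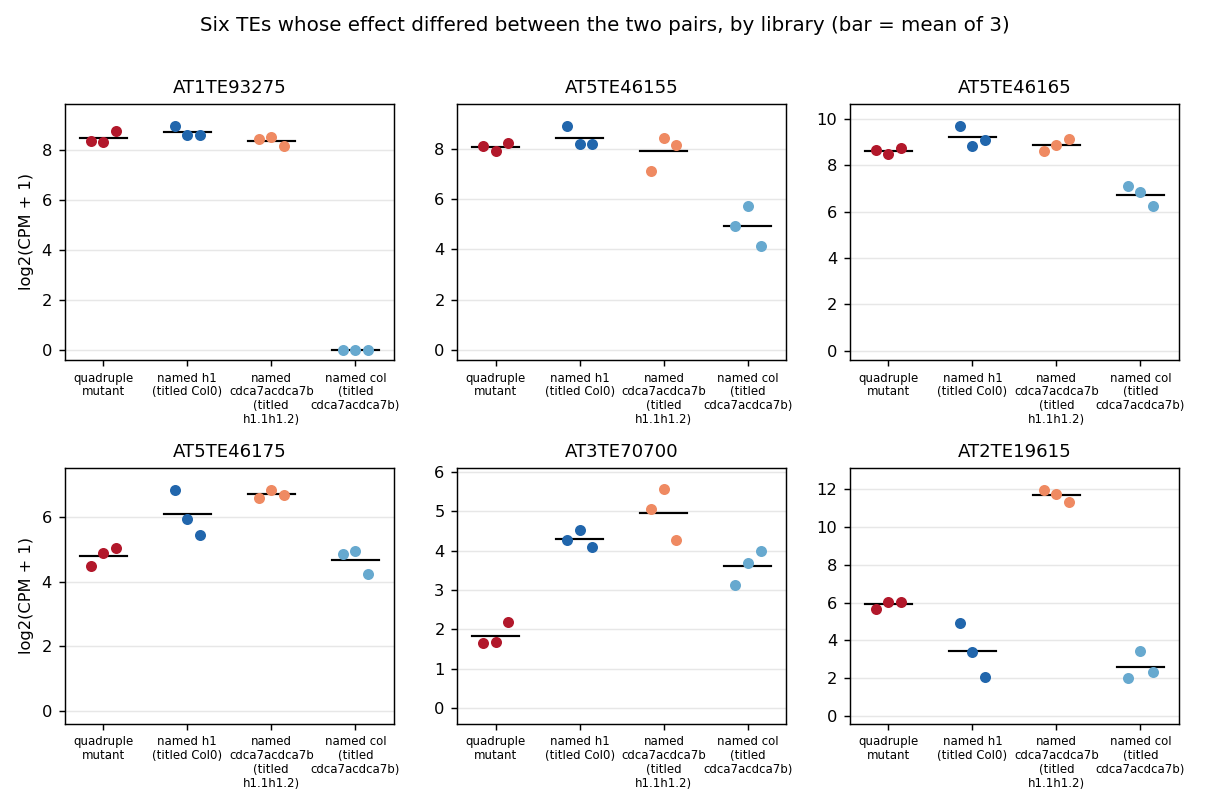
Level of the 6 TEs with a called interaction in each of the 12 libraries, log2(CPM + 1), with 1 point per library and a bar at the mean of 3. In AT1TE93275, AT5TE46155 and AT5TE46165 the libraries named col are the lowest of the 4 sets, at 0 to 139 CPM, and in AT3TE70700 the quadruple mutant is the lowest, at 2.13 to 3.58 CPM.

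By position, 98 of the tested genes lay in pseudogene-rich regions, defined as places where pseudogenes outnumber protein-coding genes in a 500-kb window around the gene, which cover the centromeres and their surroundings. Their median log2 fold change was 0.08, against 0.02 in the 4348 genes of gene-rich regions. Both called genes were among the 98, with 7 higher and 2 lower at an unadjusted p under 0.05 (7.14% and 2.04%, against 2.78% and 2.38% of all genes tested). The share of all gene counts that fell on such regions was 2.33, 2.49 and 2.51% in the quadruple mutant, against 2.69, 2.94 and 2.72% in the libraries named h1 (titled Col0), and that on pseudogenes was 2.05, 2.18 and 2.05% in the quadruple mutant, against 2.47, 2.64 and 2.48% in the libraries named h1 (titled Col0). In both measures every quadruple mutant library was below every library named h1, with the smallest p that the exact permutation test allows here (two-sided p = 0.1, and 0.45 after Benjamini-Hochberg adjustment over 9 shares). By chromosome in the identifier, TEs higher at an unadjusted p under 0.05 ranged from 1.83% on chromosome 1 to 6.67% on chromosome 2.

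Genes of the methylation machinery were counted too rarely to compare. Of 21 DNA methylation genes, which include MET1, DDM1 and VIM1, 0 passed the filter, and their summed level was 29.8, 54.7 and 34.0 CPM in the quadruple mutant and 27.6, 39.8 and 23.8 CPM in the libraries named h1 (titled Col0). Of 18 genes of RNA-directed DNA methylation, 1 was tested, CLSY1 (AT3G42670), a remodeller that brings in RNA polymerase IV, with 46.9, 17.5 and 48.3 CPM in the quadruple mutant and 30.6, 38.7 and 20.7 CPM in the libraries named h1 (titled Col0). Its log2 fold change of 0.32 ± 0.506 (SE, edgeR adjusted p = 0.99) was within the spread. Of the 8 genes of the CDCA7 family 0 were tested, of 10 histone genes 1, and of 4 reporters of lost methylation, FWA, SDC, QQS and EVD, 0. The reporters summed to 10.7, 6.56 and 17.9 CPM in the quadruple mutant and 9.20, 8.38 and 0 CPM in the libraries named h1 (titled Col0).

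Markers of shoot and root cells and of stress were not called with the filter on low counts. Of 22 nuclear photosynthesis genes, whose mRNAs are abundant in green tissue, 20 were tested and 0 called in either direction, with a median log2 fold change of 0.26 against 0.02 for all genes. They summed to 1170, 652 and 1260 CPM in the quadruple mutant and 984, 743 and 834 CPM in the libraries named h1 (titled Col0), and the sets overlapped. RCA (AT2G39730), the activase of Rubisco, had the largest fold change among them, 1.55 ± 0.916 (log2, SE, edgeR adjusted p = 0.966), but was called with no filter on low counts (adjusted p = 0.00591) and with at least 10 counts summed (0.00578), with 138, 59.1 and 164 CPM in the quadruple mutant and 44.4, 28.3 and 52.4 CPM in the libraries named h1 (titled Col0). Of 7 root genes 2 were tested (SCR and the epidermal homeobox gene GL2) and 0 called, with a median of 0.32. Of 8 stress genes 2 were tested and 0 called, with a median of -0.28. HSP101 (AT1G74310), a chaperone of heat stress, had 46.9, 30.6 and 26.8 CPM in the quadruple mutant, against 50.6, 68.0 and 105 CPM in the libraries named h1 (titled Col0) (log2 fold change -1.10 ± 0.383 SE, unadjusted p = 0.0117, edgeR adjusted p = 0.842).

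Chloroplast and mitochondrial genes rested on 1 library. Of 10 chloroplast genes tested, 7 were higher at an unadjusted p under 0.05, with a median log2 fold change of 3.52, and 0 were called. The mitochondrial gene ATMG00030 had 275, 470 and 20400 CPM in the quadruple mutant, against 231, 345 and 319 CPM in the libraries named h1 (titled Col0) (edgeR adjusted p = 0.562). Replicate 3 alone was high, and replicates 1 and 2 lay in or near the range of the reference. AT3G41768, which encodes a ribosomal RNA, had 0, 2.19 and 392 CPM in the quadruple mutant, against 0, 2.09 and 0 CPM in the libraries named h1 (titled Col0). Of the 124 genes higher at an unadjusted p under 0.05, 15 had more than 5 times the level in replicate 3 than in both other quadruple mutant libraries, and 8 of these 15 were organelle genes. Without that replicate the difference in the chloroplast share was 0.00391 percentage points, against 0.170 with it, and in the mitochondrial share 0.00997 against 0.695.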

How the data were processed

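RNA of 14-day seedlings was sequenced from a stranded mRNA kit. Per the labels and the methods, the authors trimmed reads with Trim Galore 0.6.7, aligned the left reads to TAIR10 with STAR 2.7.11a, kept unique hits with few mismatches, and counted genes and TEs with HTSeq 0.13.5. The deposited values are raw counts, 1 gene and 1 TE table per library. The strand option and the TE annotation are not given in the sources used here. Gene and TE tables share reads: 14 genes with 50 or more counts had the same 12 counts as a TE. HTSeq summary lines, 98.1 to 98.4% of the reads of the 6 gene tables, stayed out of library sizes and tests.

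All 12 libraries entered 1 edgeR 4.0.16 quasi-likelihood fit (R 4.3.3, glmQLFit and glmQLFTest, TMM, filterByExpr, library sizes over all genes, which TEs also used), with groups by title. The filter kept 4461 of 35651 genes and 753 of 31189 TEs. p-values were adjusted by Benjamini-Hochberg over all features tested, and calls are those below 0.05 whose log2 fold change was 1 or more in size. Standard errors came from the fold change and its F statistic. Each replicate was 1 seedling, and p-values measure the spread between these libraries. Same-numbered libraries of both sets deviated together with correlations of -0.081 to 0.051 (genes) and -0.109 to 0.014 (TEs), so numbers were not taken as pairs. Named features were those called (up to 15 per kind and direction), filled to 10 by the smallest p among those that did not overlap, plus the mutated genes and tested members of 8 gene lists (DNA methylation, RNA-directed DNA methylation, CDCA7 family, histones, methylation-silenced reporters, nuclear photosynthesis, root, stress). Interaction calls, features called in the other pair, GAPA, AT1G36630 and organelle genes were chosen after their values were seen. A gene withheld for evaluation is not reported here. Members and lists were chosen with earlier results of these data known. Alternatives were DESeq2 1.42.0, its size factors, other filters, fewer libraries, the replicate block, no fold cutoff, library sizes without organelle genes or from TE counts, and each library left out. Gene positions come from the RefSeq annotation of TAIR10.1, which holds 34879 of the identifiers. The fit was tested on simulated data. Summaries used pandas 2.3.3 and scipy 1.17.1 under Python 3.11.15, and plots matplotlib 3.10.9.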

Additional observations from a re-analysis of the deposited data

Results flagged for a closer look

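The change in the quadruple mutant over the libraries named h1 (titled Col0) differed from that in the tables named cdca7acdca7b over col by the test of the difference itself for 6 TEs. The interaction was -10.89 for AT1TE93275, -7.11 for AT2TE19615, -4.18 for AT3TE70700, -3.46 for AT5TE46175, -3.40 for AT5TE46155 and -2.73 for AT5TE46165, all on the log2 scale, with edgeR adjusted p-values of 2.99e-08, 1.1e-05, 0.039, 0.00237, 0.00165 and 0.000547 in the same order. In 5 of the 6 the interaction was called in all 21 alternative settings that could give it, whereas AT3TE70700 was called in 6 of 21. The count of AT1TE93275 was 0 in 3 libraries, those named col, so its value has no finite fold behind it. TEs with no count in both reference sets could not be called.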

How the results depend on the processing

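The direction of the 20 genes and 20 TEs named by rank was kept in every alternative that could give a value. Their sets did not overlap, which was a condition for naming the uncalled ones. Leaving out a library could therefore hardly turn their direction, and its keeping is no separate support. H1.2 turned direction, with log2 fold changes of -0.05 with the replicate block, -0.36 without quadruple mutant replicate 3 and replicates 1 and 3 of the tables named cdca7acdca7b, and -0.37 to 0.76 when 1 library was left out. The count of genes called higher was 31 with no filter on low counts, 32 with at least 10 counts summed, 1 with only the 6 libraries compared, 1 with the replicate block, 1 with the 9 libraries that leave out those named cdca7acdca7b (this setting and the one without 3 libraries were chosen after seeing the data), and 0 to 2 when 1 library was left out (0 without named h1 replicate 2 or 3). The count of genes called lower was 7 with no filter, 9 with at least 10 counts summed and 0 to 0 when 1 library was left out. The count of TEs called higher was 6 with DESeq2, 16 with no filter, 6 with at least 10 counts summed, 3 with only the 6 libraries, 4 with TE library sizes from TE counts, and 1 to 2 when 1 library was left out. TEs called lower were 2 with DESeq2 and 3 with no filter. For the interaction, no filter gave 26 genes positive and 94 negative, and 1 TE positive and 11 negative, while with 1 library left out the genes were 0 to 2 positive and 0 to 29 negative (2 and 29 without named cdca7acdca7b replicate 2) and the TEs 5 to 6 negative. No filter tests more features, but the edgeR adjusted p of the same gene also moved, for AT3G06465 from 0.152 to 8.49e-17. The cause of these moves was not tested.

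With the replicate number as a block, AT4G04170 lost its call (adjusted p = 0.0552), while AT2G05915 (0.0192) and AT4TE17660 (0.00137) kept theirs, and 5 interactions were called. As a share of gene counts, the difference was -0.34 percentage points for pseudogene-rich regions and -0.438 for pseudogenes. As a share of all reads in the table, it was -0.00973 and -0.0109 percentage points. All reads include those on no gene, so the sizes on these scales cannot be set side by side. Few features could be compared: 64.7 to 72.5% of genes and 94.0 to 95.4% of TEs had 0 counts in a library, while 98.1 to 98.4% of the reads lay on no gene, and whether more depth would change this was not tested.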
